A study of Arabidopsis thaliana with 35 samples.

Results

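The RNA of Arabidopsis thaliana seedlings after 1 d of cold was compared here with that after 1 h of cold, across every nuclear gene of the deposited expression table, that is, all genes whose identifiers do not belong to the chloroplast or the mitochondrion. The table lists 18779 genes, of which 18622 are nuclear, and 18619 of these could be tested. The plants were the wild type of the study, the accession Col-0 (Col0 in the labels) carrying a functional allele of FRI, the gene that makes flowering depend on cold. All groups shared this genotype and were raised at 22 °C with 16 h of light and 8 h of dark. The 1 h and the 1 d group had 2 libraries each, made from seedlings, out of 14 RNA libraries in 7 groups. The other groups had no cold, 10 d, 20 d or 40 d of cold, or 10 d of warmth after 40 d of cold. The labels give neither the temperature of the cold nor the age of the seedlings, nor the hour of harvest, and they do not say whether replicates came from separate cultures. The p-values therefore measure the spread between libraries, which may be technical.

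Plants that meet cold first make a small group of transcription factors, among them the CBF (DREB1) proteins, which bind the promoters of cold-regulated (COR) genes. Those genes encode hydrophilic proteins, sugar enzymes and membrane proteins that help cells to survive freezing, and their transcripts build up after the factors do. Handling, touch, wounding and cooling also set off brief waves of calcium-dependent and defence transcripts, and the circadian clock controls how strongly many cold genes respond.

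The deposited values are normalised read counts averaged over the 2 libraries of a group and not divided by gene length, so levels are compared here between samples and not between genes. Each average was split into the whole reads of its deeper and its shallower library. Values of a pair of libraries are given below with the deeper library named first. A gene is said to have risen or fallen from 1 h to 1 d where limma gave a Benjamini-Hochberg adjusted p under 0.05 over all 18766 genes tested, in a fit that gave every group its own variance factor. Changes are fitted log2 ratios of 1 d over 1 h, with their standard error (SE).

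The depth was 17.2 and 7.2 M reads at 1 h and 15.6 and 14.3 M at 1 d, where M is 1e+06. The 1 h libraries were much less alike than the 1 d libraries. Among the 7688 genes with a mean of at least 10, the median difference between libraries was 0.440 on the log2 scale at 1 h and 0.099 at 1 d. At 1 h, 1108 of these genes (14.4%) lay at least 2-fold apart between the libraries, against 3 genes (0.039%) at 1 d. Across genes, the 1 h libraries correlated at r = 0.923 with each other, but the deeper 1 h library correlated at 0.971 with the shallower library without cold, and the shallower 1 h library at 0.972 with the deeper library without cold. Results that turn on 1 of the 1 h libraries are therefore given with and without it.

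**Figure D1:**
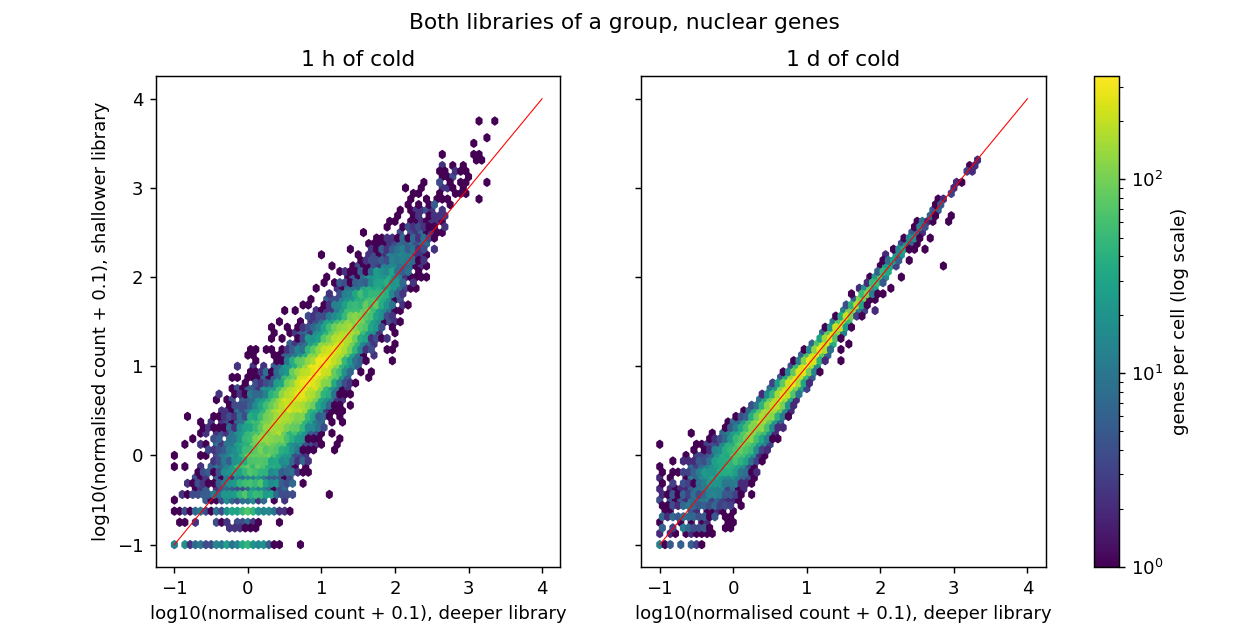
Normalised counts of nuclear genes in the shallower library (vertical axis) against the deeper library (horizontal axis) of the 1 h group (left) and the 1 d group (right), both as log10 of the count plus 0.1; colour gives the number of genes and the red line marks equality. The 1 d cloud is narrow, and the 1 h cloud is broad, with 14.4% of the genes with a mean of at least 10 lying at least 2-fold apart.

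From 1 h to 1 d of cold, 829 nuclear genes rose (4.45% of those tested) and 1336 fell (7.18%), together 11.6%, and 16454 did not pass the test. List counts below are to be read against these shares, and small counts can lie near them. Of the genes that rose, 610 did so by over 2-fold and 161 by over 4-fold. Of the genes that fell, 1149 did so by over 2-fold and 469 by over 4-fold. With every library weighted alike, rises (1690) and falls (1701) were about as many. The middle change among all called genes was 1.47 on the log2 scale and the smallest 0.57, so smaller changes were below what this design could call. The median change of all nuclear genes was −0.0037. By size of the deposited means alone, on log2 of the value plus 1, 819 genes (4.4%) were at least 2-fold higher and 1336 (7.17%) at least 2-fold lower, of which 548 and 1042 also passed the test.

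A fit of the 4 libraries alone, which knows nothing of the spread in other groups, called 332 of the risen (1.78% of genes tested) and 436 of the fallen genes (2.34%). On simulated data with 3000 changed genes, 8.35% of calls were false in the fit with variance factors and 2.86% in the 4-library fit. With 200 changed genes, 18.3% of calls were false in the fit with variance factors, and the 4-library fit made 0 calls. The shares of the fit with variance factors lay above the nominal share, and that of the 4-library fit lay below it. The simulation drew each gene independently, with 1 spread per group for all genes. It held no gaps shared by many genes, such as those between the 1 h libraries, so the share of false calls in the real data may differ. With all groups' variance factors held and 1 library left out, the rises numbered 280 without the deeper and 414 without the shallower 1 h library, and the falls 796 without the shallower 1 h library. Of the genes called, 170 rises and 360 falls kept their call under every omission of 1 of the 4 libraries, with the variance factors held or estimated anew. Genes named below as risen or fallen are of this kind, except where a value without a library is given or the text says otherwise. Unless said otherwise, list counts and adjusted p-values given below without a library have the variance factors held, an alternative chosen after seeing the data. Many of these counts differ with the factors estimated anew, where a group of 1 library has no factor of its own.

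**Figure D2:**
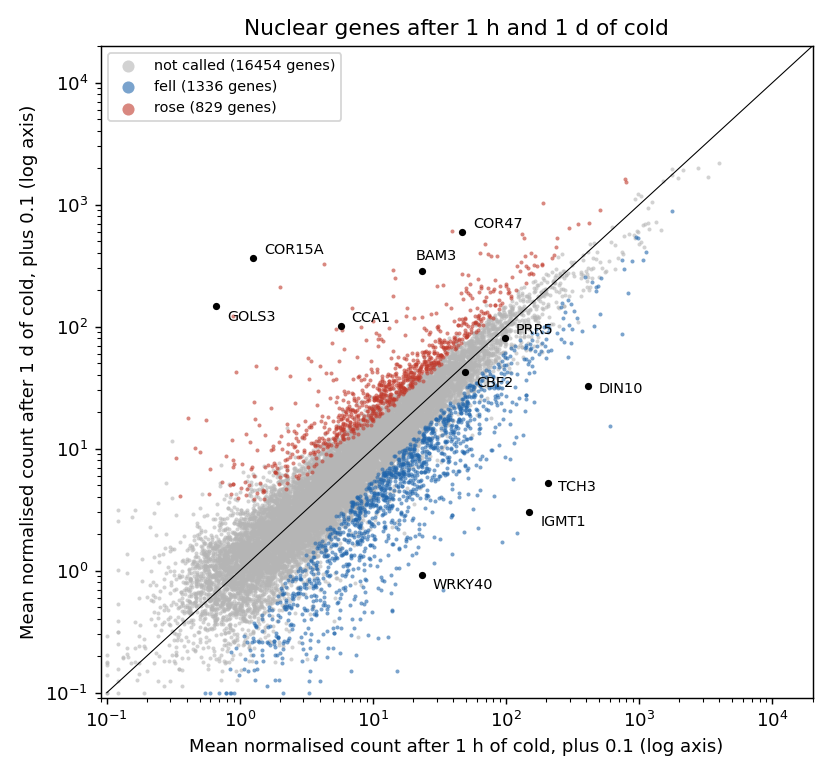
Mean normalised count plus 0.1 after 1 h (horizontal) and 1 d of cold (vertical) for each tested nuclear gene, on log axes, with the line of equality. Red points are the 829 genes that rose, blue points the 1336 that fell and grey points the 16454 that were not called; COR15A, GOLS3 and BAM3 lie far above the line, TCH3, IGMT1 and WRKY40 far below it, and CBF2 and PRR5 close to it.

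The CBF factors themselves were already present after 1 h and did not pass the test. CBF1 (AT4G25490) had 1.97 and 18.9 normalised counts after 1 h and 2.23 and 3.43 after 1 d (adjusted p 0.697), against a mean of 0.153 without cold. CBF2 (AT4G25470) had 10.6 and 87.5 after 1 h and 35.4 and 48.8 after 1 d (change 0.71, SE 0.89, adjusted p 0.714), against 0.593 without cold. CBF3 (AT4G25480) had 5.53 and 17.2 after 1 h and 17.1 and 19.9 after 1 d (adjusted p 0.193), against 0.383 without cold. The 1 d libraries of CBF1 and CBF2 lay between the 1 h libraries, which were themselves several-fold apart, so neither a rise nor a fall could be seen. The direction for CBF1 and CBF2 turned with the 1 h library that was left out. The means of CBF1, CBF2 and CBF3 at 10 d were 1.97, 29 and 5.45.

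Transcripts of the cold-regulated effectors, the targets that the CBF factors are known for, made up 6 of the 14 largest rises. Of 20 effectors tested, 14 rose, 1 fell and 5 were not called, and the 4-library fit called 12 of the rises too. The median change of the list was 2.78, from −3.37 to 9.19. COR15A (AT2G42540), which encodes a chloroplast protein that protects membranes during freezing, had 0.419 and 1.91 counts after 1 h and 369 and 362 after 1 d. Both 1 d libraries lay far above both 1 h libraries (change 9.17, SE 0.69, limma adjusted p 3.09e-07). COR15B (AT2G42530), its neighbour and close relative, went from 0.0838 and 1.5 to 124 and 122 (change 9.19, SE 1.09, adjusted p 2.73e-05).

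The dehydrins, hydrophilic proteins that bind membranes and water, rose from higher starting levels. COR47 (AT1G20440) had 41.2 and 51.9 counts after 1 h and 556 and 641 after 1 d (change 3.71, SE 0.23, adjusted p 9.63e-08). LTI30 (AT3G50970) had 17.2 and 10.6 after 1 h and 276 and 305 after 1 d (change 4.32, SE 0.36, adjusted p 8.01e-07). ERD10 (AT1G20450) went from 23.0 and 37.5 to 190.3 and 240.2 (change 2.93). RAB18 (AT5G66400), a dehydrin best known for its response to abscisic acid, was the only effector called lower, from 3.71 and 18.9 to 0.651 and 0.526 (change −3.37, SE 0.80, adjusted p 0.0102). That call was lost without the shallower 1 h library, where RAB18 was highest (adjusted p 0.104), and without the deeper or the shallower 1 d library (0.0547 and 0.0526).

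RD29A (AT5G52310), a gene of drought and cold with CBF sites in its promoter, had 2.70 and 5.65 counts after 1 h and 283 and 374 after 1 d (change 6.61, SE 0.57, adjusted p 1.08e-06). KIN2 (AT5G15970) and its relative KIN1 (AT5G15960), small hydrophilic proteins, rose together. KIN2 went from 17.8 and 60.5 to 613 and 609 (change 4.36, adjusted p 1.05e-05), and KIN1 from 1.26 and 2.25 to 47.6 and 43.9 (change 4.96, adjusted p 4.12e-05). The membrane proteins COR413PM1 (AT2G15970) and COR413IM1 (AT1G29395), of the plasma membrane and the chloroplast envelope, went from 102 and 276 to 1026 and 1045 and from 0.691 and 1.77 to 51.4 and 43.8. In all of these genes the libraries of 1 h and 1 d did not overlap, which also held for 28.7% of all genes tested in the higher and 27.9% in the lower direction. How reads were divided between COR15A and COR15B, or between KIN1 and KIN2, was not checked.

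**Figure D3:**
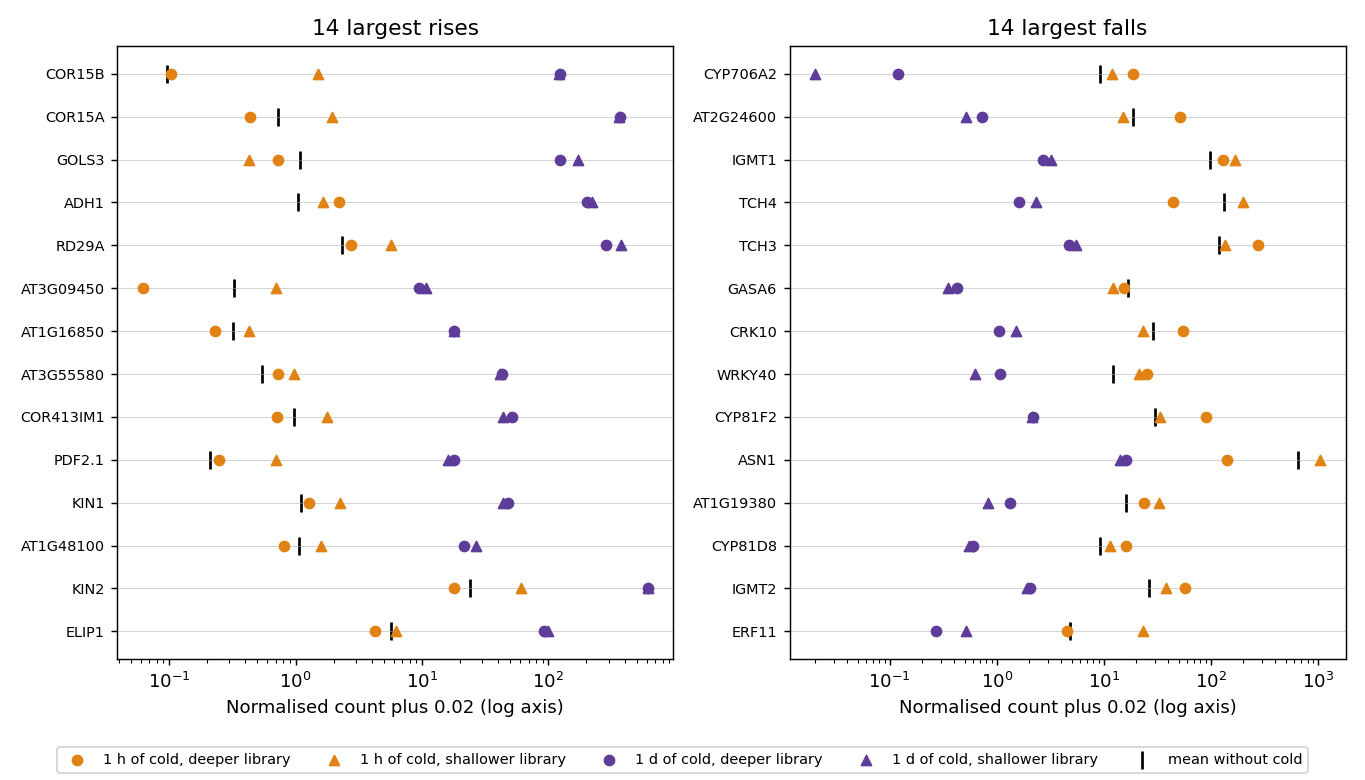
Normalised count plus 0.02 (log axis) in each library for the 14 largest rises (left) and the 14 largest falls (right); orange marks 1 h, purple 1 d, circles the deeper and triangles the shallower library, and the black bar the mean without cold. For every gene drawn the 1 h and 1 d libraries do not overlap; in COR15A they stand at 0.419 and 1.91 against 369 and 362, and in IGMT1 at 131 and 168 against 2.68 and 3.21.

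Among the 14 largest rises were also GOLS3, ADH1 and ELIP1, treated below, and AT1G48100, from 0.796 and 1.57 to 21.5 and 26.6. AT3G09450, AT1G16850, AT3G55580 and the defensin gene PDF2.1 (AT2G02120) belonged to them as well, but lost their call without the deeper 1 h library. With variance factors held, their adjusted p-values were then 0.136, 0.226, 0.0772 and 0.143. Read counts were 2 and 10 at 1 h against 378 and 385 at 1 d for AT3G09450, which is 52.2 times as much per library size (95% counting interval 29.7 to 101). Such intervals cover counting error only.

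Most enzymes that make compatible solutes were higher after 1 d. Of 10 genes for raffinose, sucrose and proline tested, 7 rose and 1 fell, with a median change of 2.18. GOLS3 (AT1G09350), a galactinol synthase at the entry to raffinose synthesis, had 0.712 and 0.408 counts after 1 h and 123 and 170.3 after 1 d (change 7.84, SE 1.03, adjusted p 7.46e-05). SUS1 (AT5G20830), a sucrose synthase, had 15.2 and 14 after 1 h and 224 and 276 after 1 d (change 4.08, SE 0.28, adjusted p 2.29e-07). GOLS1 (AT2G47180) went from 5.68 and 5.17 to 50.7 and 53.7, and the sucrose phosphate synthase SPSA2 (AT5G11110) from 8.67 and 8.92 to 68.2 and 88.1.

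Proline synthesis and breakdown moved in opposite directions. P5CS2 (AT3G55610), which makes the precursor of proline, had 51.9 and 40.3 counts after 1 h and 264 and 282 after 1 d (change 2.55, SE 0.20, adjusted p 3.76e-07). ERD5 (AT3G30775), the proline dehydrogenase that degrades it, had 182 and 399 after 1 h and 58.9 and 53.5 after 1 d (change −2.27, SE 0.33, adjusted p 0.000194). Of 11 starch breakdown genes 3 rose and none fell, with a median change of 0.15. BAM3 (AT4G17090), the chloroplast beta-amylase that releases maltose, stood out from the list with 19.3 and 27.5 after 1 h and 257 and 314 after 1 d (change 3.68, SE 0.27, adjusted p 3.09e-07). SEX1 (AT1G10760), the glucan water dikinase that opens starch to attack, went from 44.9 and 42.3 to 98.9 and 108 (change 1.24).

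Among genes that are switched on when sugar runs short, all calls were falls. Of 14 sugar starvation genes tested 7 fell and none rose (median change −1.05), and the falls numbered 4 without the shallower 1 h library. DIN10 (AT5G20250), a dark-inducible gene, had 299 and 525 counts after 1 h and 33.8 and 31.4 after 1 d (change −3.61, SE 0.26, adjusted p 2.39e-07). ASN1 (AT3G47340), the asparagine synthetase of dark and starved leaves, had 143 and 1052 after 1 h and 16.0 and 14.3 after 1 d (change −4.70, SE 0.67, adjusted p 0.000162). The 1 h libraries of ASN1 were several-fold apart, yet both lay far above the 1 d libraries.

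Both fermentation genes of the low oxygen list rose, while the list as a whole had 3 of 17 genes risen, 2 fallen and a median change of −0.34. The falls of that list numbered 4 without the deeper and 1 without the shallower 1 h library. ADH1 (AT1G77120), alcohol dehydrogenase, had 2.18 and 1.63 counts after 1 h and 202 and 220.4 after 1 d (change 6.69, SE 0.63, adjusted p 2.62e-06). PDC1 (AT4G33070), pyruvate decarboxylase, the step before it, had 8.57 and 5.24 after 1 h and 129 and 157 after 1 d (change 4.26, SE 0.35, adjusted p 6.32e-07). NDB2 (AT4G05020), an alternative NAD(P)H dehydrogenase of the mitochondrion, went from 26.6 and 19.5 to 77.5 and 78.2 (change 1.72). LBD41 (AT3G02550), a marker of low oxygen in leaves, fell from 9.57 and 14.9 to 4.23 and 4.40 (change −1.37).

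Morning genes of the circadian clock were higher after 1 d. Of 12 tested, 9 rose and none fell (median change 2.12), and the rises numbered 4 without the deeper 1 h library. CCA1 (AT2G46830) and LHY (AT1G01060), the MYB repressors that peak around dawn, led them. CCA1 had 6.56 and 4.70 counts after 1 h and 95.7 and 107 after 1 d (change 4.08, SE 0.40, adjusted p 4.41e-06). LHY had 4.63 and 2.04 after 1 h and 53.5 and 50.4 after 1 d (change 3.79, SE 0.50, adjusted p 8.15e-05). PRR9 (AT2G46790), the first of the pseudo-response regulators to follow them, went from 9.11 and 16.1 to 38.7 and 40.3 (change 1.84, adjusted p 0.000161). As no hour of harvest is given, time of day and time in the cold cannot be told apart for these genes. The same holds for any other gene in this comparison whose level follows the time of day.

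Among afternoon and evening clock genes 2 of 16 rose and 1 fell (median change 0.63), and none of these calls held under every omission of a library. PRR5 (AT5G24470) had 77.4 and 117 counts after 1 h and 79.1 and 83.5 after 1 d (adjusted p 0.795), against 6.27 without cold. GI (AT1G22770) had 97.8 and 154 after 1 h and 135 and 150.3 after 1 d (adjusted p 0.58). The libraries of the groups overlapped in both. TOC1 (AT5G61380), the evening partner of CCA1, had 25.2 and 31.7 after 1 h and 57.2 and 64.9 after 1 d (change 1.14, adjusted p 0.00181, and 0.0959 without the deeper 1 h library).

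Of 18 light signalling and B-box (BBX) genes 8 rose and 1 fell (median change 1.05), and the rises numbered 2 and the falls 0 without the deeper 1 h library. BBX25 (AT2G31380), a B-box regulator of seedling light responses, had 7.75 and 18.4 counts after 1 h and 92.9 and 102 after 1 d (change 3.22, SE 0.49, adjusted p 0.00028). Of 10 genes for chlorophyll synthesis and photoprotection 2 rose and none fell, and the rises numbered 1 without the deeper 1 h library. ELIP1 (AT3G22840), an early light-induced protein that guards the photosystems under cold and bright light, had 4.23 and 6.20 after 1 h and 92.2 and 98.5 after 1 d (change 4.33, SE 0.39, adjusted p 1.6e-06).

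**Figure D4:**
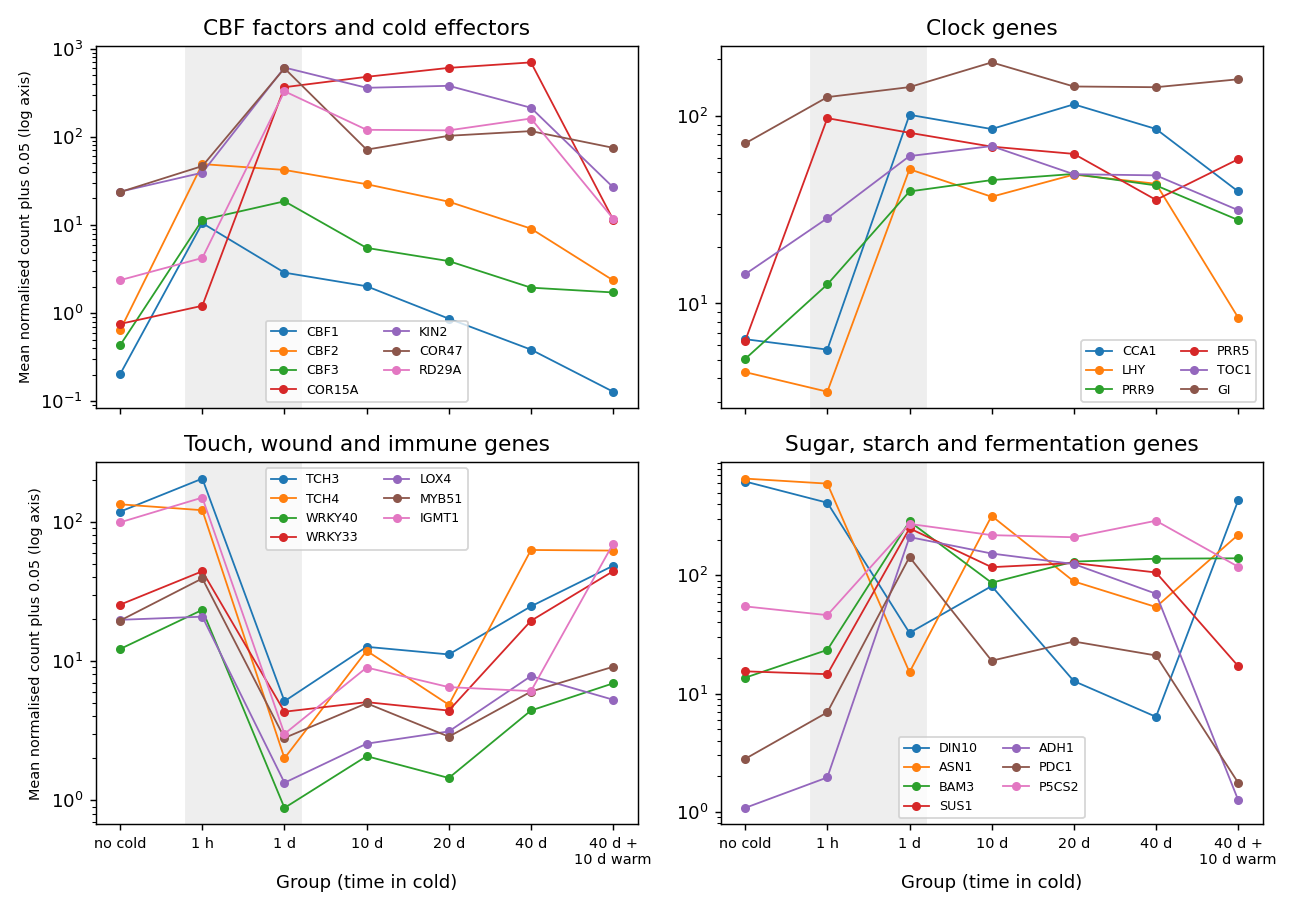
Deposited group means plus 0.05 (log axis) for the named genes in all 7 groups, from no cold to 40 d of cold and 10 d after it; the grey band holds the 1 h and 1 d groups. The effectors climb across the band and the touch, wound and immune genes drop across it, with TCH3 at a mean of 118 without cold and 12.6 after 10 d.

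Touch-inducible and calcium-binding genes were much lower after 1 d. Of 8 tested, 6 fell and none rose (median change −2.56), and the falls numbered 5 with either 1 h library left out. TCH3 (AT2G41100), a calmodulin-like protein, had 274 and 135 counts after 1 h and 4.75 and 5.43 after 1 d (change −5.24, SE 0.28, adjusted p 1.11e-08). TCH4 (AT5G57560), a cell wall xyloglucan transferase, had 44.1 and 198 after 1 h and 1.58 and 2.33 after 1 d (change −5.56, SE 0.63, adjusted p 1.7e-05). Without cold, the mean of TCH3 was 118, below both 1 h libraries, and that of TCH4 was 133, between them. The 1 h libraries themselves differed by a median of 1.02 (log2) over the 8 genes, higher in the shallower library, against −0.04 over all nuclear genes.

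Among early transcription factors of cold and stress all calls were falls. Of 16 tested besides the CBF genes, 7 fell and none rose (median change −0.69), and the 4-library fit called 4 of the falls too. The fitted change was above 0 in 3 of the 16, at most 1.51. The 1 h libraries differed by a median of 1.045 (log2) over the list, higher in the shallower library. WRKY40 (AT1G80840), a repressor of defence genes, had 25.4 and 21.1 counts after 1 h and 1.05 and 0.609 after 1 d (change −4.84, SE 0.37, adjusted p 3.39e-07). WRKY33 (AT2G38470), an activator of camalexin synthesis, had 42.6 and 45.5 after 1 h and 4.05 and 4.49 after 1 d (change −3.36, SE 0.24, adjusted p 2.39e-07). ZAT10 (AT1G27730), a zinc finger repressor, went from 39.9 and 156 to 6.81 and 9.94, and ERF6 (AT4G17490), an ethylene response factor, from 25.7 and 94.0 to 3.95 and 4.18.

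The WRKY family as a whole counted 18 falls and 1 rise among 50 members tested (median change −0.57), and the falls numbered 10 and the rises 0 without the deeper 1 h library. WRKY15 (AT2G23320) had 32.6 and 45.7 counts after 1 h and 5.35 and 4.74 after 1 d (change −2.90), and WRKY22 (AT4G01250) 33.0 and 38.5 and then 6 and 6.20 (change −2.53). Among genes named ERF 9 of 18 fell and 1 rose, and the falls numbered 5 without the shallower 1 h library and the rises 0 without the deeper. Of 17 regulators known to act upstream of the CBF genes 4 fell and none rose, and the falls numbered 2 without the deeper 1 h or without the deeper 1 d library. MPK3 (AT3G45640), a stress-activated protein kinase, went from 53.8 and 70.1 to 22.1 and 25.6 (change −1.35, adjusted p 0.000887). MYB15 (AT3G23250), a repressor of CBF genes, had 122 and 77 reads at 1 h and 2 and 0 at 1 d. That is a ratio of 0.00825 (95% counting interval 0.000992 to 0.0302, limma adjusted p 0.000652, and 0.0722 in the 4-library fit). Its call was lost without the shallower 1 d library with variance factors estimated anew, and kept with the factors held.

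In the defence hormone lists every call was a fall. Of 23 jasmonate genes 13 fell (median change −1.48), and the falls numbered 7 without the shallower 1 h library. LOX4 (AT1G72520), a lipoxygenase that starts jasmonate synthesis, had 20.8 and 20.7 counts after 1 h and 1.88 and 0.692 after 1 d (change −4.14, SE 0.43, adjusted p 8.1e-06). MYC2 (AT1G32640), the master regulator of the pathway, went from 20.2 and 29.1 to 7.21 and 5.79 (change −1.85), and its repressor JAZ1 (AT1G19180) from 44.1 and 39.2 to 13.8 and 16.9 (change −1.46).

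Of 11 genes of salicylic acid and immunity 6 fell (median change −1.27), and the falls numbered 3 without the deeper 1 h library. ICS1 (AT1G74710), which makes most salicylic acid during infection, had 9.30 and 11.2 counts after 1 h and 1.60 and 1.86 after 1 d (change −2.52, SE 0.37, adjusted p 0.000216). Its level without cold was 12.5 and 10.4. Of 12 ethylene genes 6 fell (median change −1.16), and the falls numbered 3 without the shallower 1 h library. ACS11 (AT4G08040), an enzyme of ethylene synthesis, had 10.1 and 9.87 after 1 h and 1.3 and 1.14 after 1 d (change −3.03, SE 0.42, adjusted p 0.000125). Its level without cold was 8.91 and 13.9. In other hormone lists there was 1 fall among 15 auxin genes and 3 among 14 gibberellin genes. Among 21 abscisic acid genes 3 fell and 1 rose. Over all nuclear genes tested 7.18% fell and 4.45% rose, and the auxin fall and the abscisic acid rise are near those shares. None of 7 brassinosteroid genes was called, where limma gave 1 gene an unadjusted p under 0.05 and the 4-library fit called none. The auxin falls numbered 0 without the deeper and 2 without the shallower 1 h library, and the abscisic acid rise was lost with either left out.

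**Figure D5:**
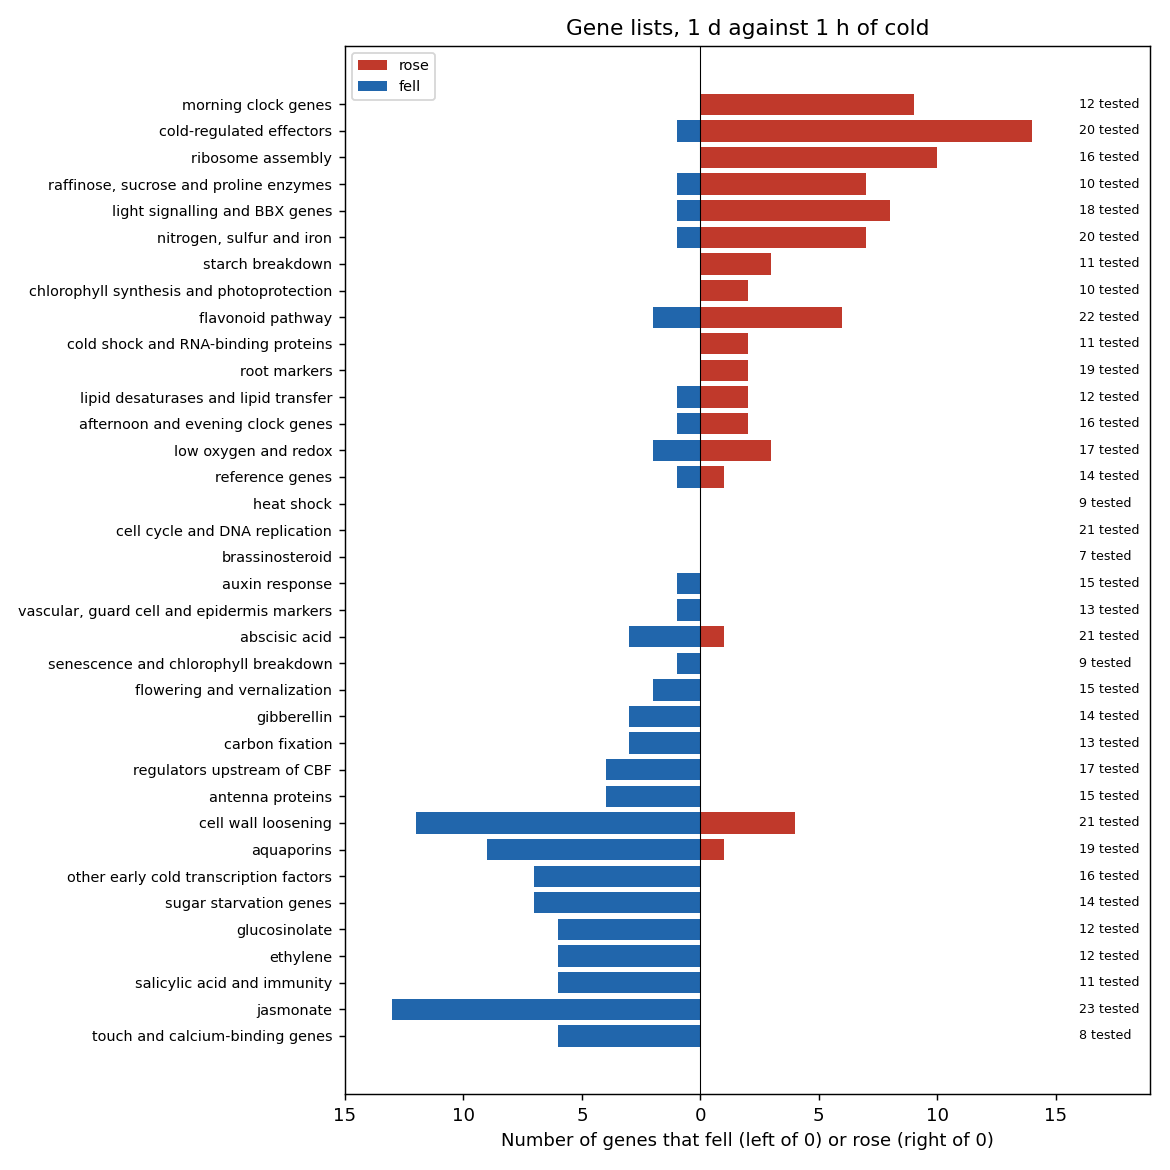
Number of genes that rose (red, right of 0) and fell (blue, left of 0) from 1 h to 1 d in each list with at least 5 genes tested, ordered by the difference as a share of the list; the number tested stands at the right. Cold-regulated effectors show 14 rises of 20 and jasmonate genes 13 falls of 23.

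In the glucosinolate list 6 of 12 genes fell and none rose, and the falls numbered 2 without the deeper 1 h library. MYB51 (AT1G18570), the regulator of the indole branch of these defence compounds, had 42.9 and 35.4 counts after 1 h and 2.45 and 3.05 after 1 d (change −3.85, SE 0.25, adjusted p 1.07e-07). IGMT1 (AT1G21100) and CYP81F2 (AT5G57220), which modify indole glucosinolates, were among the 14 largest falls. IGMT1 went from 131 and 168 to 2.68 and 3.21 (change −5.65, SE 0.30, adjusted p 1.11e-08), and CYP81F2 from 89.4 and 33.6 to 2.15 and 2.13 (change −4.74). The cytochrome P450 gene CYP706A2 (AT4G22710) kept 4 and 0 reads at 1 d against 884 and 173 at 1 h, a ratio of 0.00311 (95% counting interval 0.000845 to 0.00797).

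Among phenylpropanoid genes rises prevailed, with 6 of 22 flavonoid pathway genes risen and 2 fallen (median change 0.38), and the rises numbered 3 and the falls 1 without the deeper 1 h library. PAL2 (AT3G53260), a phenylalanine ammonia-lyase at the entry to the pathway, had 178 and 85.5 counts after 1 h and 578 and 574 after 1 d (change 2.21, SE 0.28, adjusted p 4.87e-05). UGT78D2 (AT5G17050), a flavonoid glucosyltransferase, had 8.65 and 19.5 after 1 h and 63.6 and 62.2 after 1 d (change 2.45, SE 0.28, adjusted p 1.7e-05).

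Of 21 genes that loosen the cell wall 12 fell and 4 rose (median change −1.26). The 4-library fit called 6 of the falls and 3 of the rises too. Fewer rises were called without the deeper 1 h library, and fewer falls without the shallower. The expansin EXPA4 (AT2G39700) had 19.6 and 31.2 counts after 1 h and 4.48 and 4.54 after 1 d (change −2.38, SE 0.34, adjusted p 0.000162). XTH18 (AT4G30280) and XTH20 (AT5G48070), of the same xyloglucan transferase family as TCH4, moved in opposite directions. XTH18 went from 52.8 and 48.9 to 10.4 and 13.5 (change −2.11), and XTH20 from 12.0 and 10.6 to 78.3 and 79.1 (change 2.77, adjusted p 8.12e-05). GASA6 (AT1G74670), a small gibberellin-responsive peptide gene, fell from 15.6 and 12.1 to 0.400 and 0.332 (change −5.23).

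Among 19 aquaporins, channels for water, 9 fell and 1 rose (median change −0.65), and the falls numbered 3 without the shallower 1 h library and the rises 0 without the deeper. PIP1;5 (AT4G23400), of the plasma membrane, had 101 and 100.1 counts after 1 h and 35.3 and 35.1 after 1 d (change −1.51, SE 0.20, adjusted p 6.5e-05). TIP2;1 (AT3G16240), of the vacuole membrane, had 384 and 1099.5 after 1 h and 89.0 and 85.6 after 1 d (change −2.91, SE 0.34, adjusted p 2.13e-05). For the photosynthetic antenna 4 of 15 genes fell, which became 0 without the shallower 1 h library and 11 without the deeper. LHCB4.2 (AT3G08940) shows this with 411 and 1241 counts after 1 h and 203 and 177 after 1 d (adjusted p 0.00134, and 0.0818 without the shallower 1 h library). The 3 falls among 13 carbon fixation genes became 1 without the shallower and 7 without the deeper 1 h library.

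Of 16 ribosome assembly genes 10 rose and none fell, and all 16 fitted changes were above 0 (median 1.11). The rises numbered 5 with either 1 h library left out. PES (AT5G14520), a factor of the large ribosomal subunit, had 37.2 and 21.2 counts after 1 h and 75.9 and 77.5 after 1 d (change 1.37, SE 0.24, adjusted p 0.000908). FIB2 (AT4G25630), a fibrillarin that methylates ribosomal RNA, went from 11.1 and 7.62 to 37.4 and 36.1 (change 1.90). None of 21 cell cycle and replication genes passed the limma test, in either fit, although 19 had a change above 0 (median 0.49) and 3 an unadjusted p under 0.05. Their level was lower in the shallower 1 h library by a median of 1.25 on the log2 scale, and the part of that gap in the result was not tested.

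Of 20 genes for nitrogen, sulfur and iron 7 rose and 1 fell. The rises numbered 4 and the falls 3 without the deeper 1 h library, and the falls 0 without the shallower. FER3 (AT3G56090), a ferritin that stores iron, had 11.8 and 18 counts after 1 h and 49.0 and 50.3 after 1 d (change 1.86, SE 0.23, adjusted p 4.84e-05). The root iron transporter IRT1 (AT4G19690) had 87.4 and 11.8 after 1 h and 209.9 and 208 after 1 d (change 2.46, adjusted p 0.0107, and 0.209 without the shallower 1 h library). IRT1 was also a root marker. The summed level of the 19 root markers was 262 and 157 at 1 h and 413 and 406 at 1 d, of which IRT1 made up the greater part of the difference. Of these markers 2 rose and none fell, the rises numbered 1 with either 1 h library left out, and none was at 0 reads in the 4 libraries. Fewer cells of a type and less RNA per cell cannot be told apart in such bulk samples. The 13 markers of vascular tissue, guard cells and epidermis summed to 322 and 303 at 1 h and 280 and 284 at 1 d. The lower sum came from FDH (AT2G26250), an epidermal gene of cuticle lipid synthesis, with 147 and 133 counts after 1 h and 69.1 and 72.4 after 1 d (adjusted p 0.00272, and 0.0501 without the deeper 1 h library). The other 12 markers had fitted changes above 0, and none of them was called.

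The main genes of vernalization did not pass the test. FLC (AT5G10140), the floral repressor that prolonged cold silences, had 22.0 and 18.6 counts after 1 h and 19.1 and 20.9 after 1 d, and the libraries of the groups overlapped (change −0.05, SE 0.24, adjusted p 0.944). VIN3 (AT5G57380), the cold-induced gene that starts FLC silencing, had 0 and 0 reads at 1 h, where 3 reads over the group would be a level of 0.0481, and 2 and 12 reads at 1 d (adjusted p 0.623). Of 15 flowering and vernalization genes 2 fell, TEM1 (AT1G25560) and TEM2 (AT1G68840), repressors of flowering. Neither was called without the shallower 1 h library (adjusted p 0.401 and 0.12) or in the 4-library fit (0.118 and 0.0836). Of 14 genes often used as reference, GAPC1 (AT3G04120) rose from 516 and 495 to 898 and 899.9, and UBQ10 (AT4G05320) fell from 967 and 912 to 519.8 and 566. Both calls were lost without the deeper 1 d library (adjusted p 0.0612 and 0.0905, variance factors estimated anew). That of GAPC1 was also lost without the shallower 1 d library (0.0622), and that of UBQ10 without the deeper 1 h library (0.0547, variance factors held).

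Of the lists not yet described, 2 of 12 lipid genes rose and 1 fell, and the rises numbered 1 without the deeper 1 h library and the falls 0 without the shallower. AZI1 (AT4G12470), a lipid transfer protein of systemic immunity, had 11.4 and 16.6 counts after 1 h and 169.6 and 186 after 1 d (change 3.76, SE 0.30, adjusted p 5.62e-07). Among 11 cold shock and RNA-binding protein genes 2 rose and none fell, and no rise was called without the deeper 1 h or without the deeper 1 d library. None of the 9 heat shock genes on the list passed the limma test (median change −1.75), while 3 had an unadjusted p under 0.05 and the 4-library fit called 1. Outside the list, the neighbours HSP81-3 (AT5G56010) and Hsp81.4 (AT5G56000) were called higher, with changes of 1.35 and 1.25 (limma adjusted p 0.0129 and 0.0451). They are named after their values were seen, and their values without a library are not given. The 9 genes on the list differed by a median of 1.31 on the log2 scale between both 1 h libraries, higher in the shallower, and the part of that gap was not tested. Of 9 senescence genes 1 fell, and neither of 2 seed storage genes was called in either limma fit, 1 of them with an unadjusted p under 0.05.

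The later groups place these changes in time, as a description, since the 1 h and 1 d means chose the genes. Of the 829 genes that rose, 556 had their highest of 7 means at 1 d, 109 at 10 d and 55 at 40 d. By 10 d, 257 of the 829 were under 0.5 of their 1 d mean and 561 within 2-fold of it. COR47 belonged to the former, with means of 599 at 1 d and 71.6 at 10 d, as did PDC1 with 143 and 18.9. COR15A did not fall back, with means of 366 at 1 d, 479 at 10 d and 699 at 40 d. Of the 1336 genes that fell, 775 had their highest mean at 1 h and 242 without cold, and 918 stayed within 2-fold of their 1 d mean at 10 d.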

How the data were processed

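Ribosome-depleted total RNA was made into libraries with a directional kit, per the labels. The authors deposited a normalised count signal averaged over 2 libraries of a group; TopHat, edgeR and the build TAIR10 are named in the submitters' processing notes, and versions, settings and the strand option of counting are not given in the sources used here. Each mean combines whole reads of 2 libraries, each read worth a fixed step; at a relative tolerance of 1e-12, 99.98% (1 h) and 99.97% (1 d) of values had a single whole-read solution, and 13 genes (3 nuclear) were left out. The columns carry no replicate numbers. limma 3.58.1 (R 4.3.3) with voom was fitted to all 14 libraries, with the authors' effective library sizes (47.7 and 14.7 M at 1 h, 40.0 and 36.1 M at 1 d) and 1 variance factor per group (3.24 at 1 h, 0.511 at 1 d). No filter on low values was used.

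Splitting and fits were tested on simulated data, in which the genes varied independently of each other. The share of false calls exceeded the nominal one in the main model (18.3% with 200 and 8.35% with 3000 changed genes). It did not in the 4-library model, which made 0 calls with 200 changed genes. Names came from RefSeq (assembly TAIR10.1), which held 18610 identifiers (99.1%). Named were the 14 largest rises and falls with a higher mean of at least 10 whose call held without any 1 library (factors estimated anew), the 4 smallest adjusted p-values in each direction of a list, 11 fixed genes and the 6 largest uncalled ratios; genes outside this rule (ERD10, COR413PM1, MYC2, WRKY15, WRKY22) were chosen after their values were seen. The comparison, gene lists and tests were chosen with earlier results of these data known. Alternatives were other scalings, weights, filters, limma-trend, pseudocounts and leaving out each library. Promoter motifs were not used here. Histone mark peaks and input libraries were not used here.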

Additional observations from a re-analysis of the deposited data

How the results depend on the processing

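No paired analysis was possible because the table's columns carry no replicate numbers. Rises numbered 1690 and falls 1701 with every library weighted alike, and 352 and 438 in the 4-library fit. By list, the 4-library fit called 12 of 14 effector rises and 2 of 10 ribosome assembly rises. It called 5 of 13 jasmonate falls, 3 of 9 aquaporin falls, 2 of 9 falls among genes named ERF and 0 of 4 antenna falls. Leaving out each library in turn gave 387 to 2528 rises and 521 to 3536 falls with variance factors estimated anew (a group of 1 library then has no factor of its own), and 280 to 675 and 796 to 1099 with the factors held, an alternative chosen after seeing the data. By size alone, a pseudocount of 0.1 gave 1327 genes higher, one of 5 gave 365 higher and 598 lower, and a higher mean of at least 10 gave 768 lower. The direction of 6 uncalled genes turned with the library left out, and the cause was not tested: fitted changes ran from −2.78 to 0.48 for CBF1, −1.08 to 1.97 for CBF2, −0.53 to 0.070 for PRR5, −0.12 to 0.54 for GI, −0.14 to 0.10 for FLC (0.02 without the deeper 1 d library) and −3.61 to 0.073 for AT1G50040. Other scalings, a filter on means below 1 and limma-trend kept both counts within 1.5 times. Of 152 named genes, the 4-library fit left 51 weaker and 1 stronger, none reversed. The spread at 1 h and the 7.2 M reads of its shallower library limit small changes.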

Other observations

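Several gene families not on any list were counted after the values had been seen, and no test was made of them. Of 31 genes with CRK as their name or synonym, a name of cysteine-rich receptor-like kinases, linked to defence, that some CDPK-related kinases in the count share, 16 fell and none rose, with a median change of −1.49 against −0.0037 over all nuclear genes, and the 4-library fit called 7 of them. CRK10 (AT4G23180) had 54.5 and 23.2 counts after 1 h and 1.03 and 1.5 after 1 d (change −4.94, SE 0.35, limma adjusted p 2.29e-07), and CRK41 (AT4G00970) 29.1 and 17.1 and then 2.00 and 1.66 (change −3.68). Of 5 indole glucosinolate methyltransferases (IGMT) 4 fell, all called by the 4-library fit too. These 4 lie next to each other in the table's gene order, with IGMT3 (AT1G21110) at 57.0 and 69.2 after 1 h and 4.13 and 4.82 after 1 d, and IGMT4 (AT1G21130) at 286 and 249 and then 97.8 and 94.0. How reads were divided between these relatives was not checked. Nicotianamine synthases (NAS), which make a metal chelator, rose in 3 of 4 cases, of which the 4-library fit called 1, led by NAS2 (AT5G56080) from 3.94 and 0.613 to 38.2 and 39.7 (change 3.95). GSTU24 (AT1G17170), a tau-class glutathione transferase, went from 15.3 and 6.81 to 84.5 and 84.7. Its family was mixed, with 5 rises and 2 falls among 23 genes named GSTU (median change −0.19). The other families counted were mixed too. Genes named CYP81 had 2 rises and 2 falls among 12, those named PUB 1 and 4 among 21, and those named BGLU 4 and 6 among 32.

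Fallen genes had a fallen neighbour in 295 of 1336 cases (22.1%), against 13.7% of any gene, and risen genes a risen neighbour in 95 of 829 (11.5%), against 8.65%. Neighbouring relatives such as the IGMT genes share sequence, so these shares are a description.

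Both 1 h libraries were far apart in particular genes, named here after their values were seen. PHI-1 (AT1G35140) had 9.34 counts in the deeper library but 178 in the shallower one, and CAF1a (AT3G44260) 11.5 and 102, while the iron uptake genes were lower in the shallower, FRO2 (AT1G01580) with 93.5 and 14.2 and BHLH38 (AT3G56970) with 15.1 and 1.23. At 1 d the same genes differed by at most 0.58 on the log2 scale between libraries. AT5G17350 was among the 6 largest differences of the means that did not pass the test, with 2.79 and 31.0 counts after 1 h and 1.2 and 2.66 after 1 d (adjusted p 0.121).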
